A study of Mus musculus with 9 samples.

Results

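The 10 genes described here are Notch pathway genes known from mural cells, the smooth muscle cells and pericytes that wrap blood vessels. They were the receptors Notch1, Notch2 and Notch3, the ligands Jag1, Dll1 and Dll4, and the target genes Hes1, Hey1, Hey2 and Heyl. They were chosen by name, 10 of 21866 protein-coding genes, and all peaks that overlapped a gene body or the 50 kb on either side of it were taken. A peak was called a promoter peak where it met the window from 1 kb before to 1 kb after a start of a protein-coding transcript of that gene, intragenic where it otherwise met the gene body, and flanking where it met the 50 kb flanks alone.

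The cells were primary oviductal muscle cells of WT mice, 8 to 12 weeks old, on D2 of pregnancy after mating, and no other genotype, treatment or time was compared. Each library was made from 50000 fixed cells by ChIC-seq, in which an antibody directs micrococcal nuclease fused to protein A to cut chromatin around its target, and the released fragments are sequenced. The antibodies were against H3K27ac (3 replicates) and H3K4me1 (3 replicates), and 3 IgG libraries served as controls inside the peak calls. The cells came from digested whole oviduct and were plated briefly in serum before fixation, with no sort for a cell type in the labels, so the libraries may hold other oviduct cells.

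In Notch signaling, a ligand on one cell binds a receptor on its neighbour, the receptor is cut, and its intracellular part enters the nucleus and joins the DNA-binding protein RBPJ to switch on target genes. The best known targets are the Hes and Hey repressors, which bind DNA themselves. In vascular smooth muscle the pathway is known for its part in mural cell maturation. H3K27ac marks active promoters and enhancers, and H3K4me1 marks enhancers and is typically low at the start site of active promoters and higher beside it. A peak is a region that the authors' caller found above IgG. It is no measure of transcription.

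Promoter sequences of 5 genes are shown first, 2 receptors, 2 ligands and 1 target, because the promoter peaks of these genes are described one by one below. Of the 10 genes, 7 had an entry in the RefSeq promoter sequences (build GRCm38.p6), and Hes1, Hey1 and Heyl had none. Each line gives, 5′ to 3′ in the direction of transcription, the bases of the 250 before the RefSeq start that lie in no annotated exon. Capitals mark TGGGAA, the core of the RBPJ site, and CACGNG, a box bound by Hes and Hey proteins, on either strand.
Notch2 promoter (chr3:98013288-98013526, plus strand): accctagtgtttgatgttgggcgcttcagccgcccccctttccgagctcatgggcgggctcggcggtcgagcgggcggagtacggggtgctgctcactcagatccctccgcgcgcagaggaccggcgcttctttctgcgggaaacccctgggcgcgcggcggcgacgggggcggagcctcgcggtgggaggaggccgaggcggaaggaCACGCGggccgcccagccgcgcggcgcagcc
Notch3 promoter (chr17:32166891-32167140, minus strand): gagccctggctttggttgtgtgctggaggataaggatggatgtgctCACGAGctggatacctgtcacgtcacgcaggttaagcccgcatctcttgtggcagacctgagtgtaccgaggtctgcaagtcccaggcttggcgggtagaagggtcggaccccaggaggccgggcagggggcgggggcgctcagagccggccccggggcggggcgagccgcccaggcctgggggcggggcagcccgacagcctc
Jag1 promoter (chr2:137116645-137116770, minus strand): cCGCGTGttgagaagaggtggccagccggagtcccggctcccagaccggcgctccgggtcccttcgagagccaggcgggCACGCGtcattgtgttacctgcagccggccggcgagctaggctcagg
Dll4 promoter (chr2:119325565-119325783, plus strand): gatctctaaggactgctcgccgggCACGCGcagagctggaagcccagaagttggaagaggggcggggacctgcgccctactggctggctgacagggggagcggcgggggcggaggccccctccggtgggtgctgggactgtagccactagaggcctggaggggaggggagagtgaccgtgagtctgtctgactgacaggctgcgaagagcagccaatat
Hey2 promoter (chr10:30842802-30843033, minus strand): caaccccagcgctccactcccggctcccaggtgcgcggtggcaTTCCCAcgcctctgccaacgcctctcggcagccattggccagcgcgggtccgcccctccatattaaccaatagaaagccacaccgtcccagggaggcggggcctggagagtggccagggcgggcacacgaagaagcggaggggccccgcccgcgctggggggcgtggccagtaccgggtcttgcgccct

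The 250 bases before the Notch2 start had a G+C content of 72.0% and a CpG observed-to-expected ratio of 1.06, the highest of the 8 entries for the 7 genes. Those of Dll4 had 65.6% and 0.557, the lowest ratio. Over the 8 entries the medians were 65.8% and 0.675, against 52.4% and 0.373 over 32851 RefSeq promoters. CACGNG was found in 6 of the 8 entries, including both of Dll1, against 23.5% of all promoters. TGGGAA was found in 1, in Hey2, on the reverse strand and within the longer core GTGGGAA, 207 bases before the start. Of all promoters, 21.6% held TGGGAA and 5.42% held GTGGGAA. The N box CACNAG was in 4 entries against 36.7% of all promoters, and the Notch3 match in capitals also fits it. CACGTG, the palindromic case of CACGNG, and the AP-1 site TGACTCA were in 0 entries, against 6.02% and 4.46%. CACGNG contains a CpG, and its count was not compared with promoters of like composition. Both Dll1 entries lay wholly in annotated exons. These matches describe letters and were not tested for binding.

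Libraries of the marks had 40551842 to 78891920 fragments and those of IgG 3110985 to 3713369, per the file headers, so the IgG depth limits what a call can resolve. Nothing in the labels says that replicates came from separate animals or cultures, and the p-values measure only the spread between these libraries. Among marker genes, a promoter H3K27ac peak in at least 2 of 3 replicates was found at 7 of 12 mural, 3 of 12 endothelial, 0 of 8 epithelial and 1 of 8 blood cell genes. An H3K4me1 peak was found at 10, 4, 2 and 0 of them. Over all protein-coding genes the shares were 53.9% for H3K27ac and 43.6% for H3K4me1, so the H3K27ac count of the mural list, which includes Notch3 itself, was near that of all genes. The blood cell gene was Ptprc, in 3 of 3 replicates. Acta2, Des and Pdgfrb, a contractile actin, a muscle intermediate filament and a pericyte receptor, had both marks in all 6 replicate lists. Rgs5, Myh11 and Notch3, which also define mural or smooth muscle cells, had no promoter H3K27ac in any replicate. The endothelial genes Cldn5, Vwf, Egfl7 and Flt1 had no promoter peak in any list. Emcn had H3K27ac in 3 replicates and H3K4me1 in 2, Tek had each mark in 2, and Cdh5 had H3K27ac in 2.

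The first comparison asked which marks lay at the promoters of the pathway. Of the 10 genes, 6 had promoter H3K27ac in at least 2 of 3 replicates, against 53.9% of all protein-coding genes. H3K4me1 was at 7, against 43.6%. Both marks were at 4 (Notch1, Notch2, Dll1 and Hey2), against 39.1%. H3K27ac without H3K4me1 was at Jag1 and Hes1, 2 of 10 against 14.8%. H3K4me1 without H3K27ac was at 3 genes (Notch3, Dll4 and Heyl), against 4.54%. Hey1 had neither. Hes1 also had H3K4me1 in 3 replicates when the starts of all its transcripts were used, and with windows of 3 kb both Hes1 and Jag1 had H3K4me1, so that no gene had H3K27ac alone. When peaks needed a mean −log10 p of at least 1.3, H3K27ac was at 4, H3K4me1 at 2 and both at 1, against 40.8%, 13.5% and 11.7% of all genes. When a peak had to cover 50% of a promoter window, the counts were 2, 1 and 1, against 38.7%, 14.1% and 11.4%.

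The median share of the promoter windows covered by peaks was 25.8% for H3K27ac and 21.0% for H3K4me1, against 15.6% and 4.45% over all genes.

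The share of the promoter windows that each mark covered was then compared between the 3 lists of either mark for every protein-coding gene. H3K27ac covered more than H3K4me1 in every replicate at Notch2, Jag1 and Hes1, 3 of 10 genes against 26.2% of all genes. H3K4me1 covered more in every replicate at Dll1, Dll4 and Heyl, 3 of 10 against 1.71%. At the other 4 the replicates of the marks overlapped. An exact two-sided permutation test of 3 lists against 3 gave p = 0.1 for each of the 6, the smallest it allows, and 0.358 after Benjamini-Hochberg adjustment over all 21866 genes, so no gene could pass a threshold of 0.05. With only peaks of a mean −log10 p of at least 1.3, H3K27ac remained higher at Notch2 and Jag1, 2 of 10 against 25.3% of all genes, and the count with H3K4me1 higher fell to 0, against 0.366%. The calls at Hes1 and Heyl were lost with windows of 250 bp, and those at Notch2 and Dll1 with windows of 3 kb, where Notch3 gained a call with H3K4me1 higher. Without H3K4me1 replicate 3 the count with H3K4me1 higher was 5, with Notch3 and Hey2 added, against 4.56% of all genes. Fewer lists can only keep or add such calls.

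**Figure D1:**
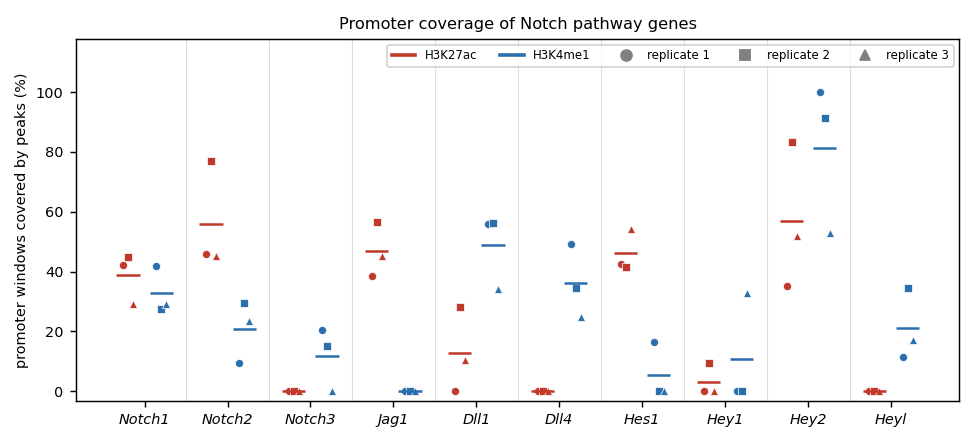
Percent of the promoter windows (1 kb either side of each coding start) covered by peaks, on the vertical axis, for the 10 genes, with 1 point per replicate list (red, H3K27ac; blue, H3K4me1) and a line at the mean of 3. All red points lie above all blue points at Notch2, Jag1 and Hes1, and all blue points lie above all red at Dll1, Dll4 and Heyl.

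Among the receptors, Notch1 and Notch2 carried both marks at their promoters and Notch3 had no H3K27ac there. With only peaks of a −log10 p of at least 1.3, Notch1 had promoter H3K4me1 in 0 replicates. With windows of 250 bp, Notch2 had H3K4me1 in 0 replicates. Notch2 lies on chromosome 3 (98013527 to 98150361, plus strand, GRCm38). H3K27ac covered 45.9%, 76.9% and 45.3% of its promoter window in replicates 1, 2 and 3. For H3K4me1 the shares were 9.50%, 29.6% and 23.6%. The groups did not overlap, and the difference (H3K27ac minus H3K4me1, here and for the other promoters) was 35.1 ± 12.0 percentage points (SE, n = 3 lists per mark). The H3K27ac peaks began 83 and 94 bases after the start in replicates 1 and 3, so that they left the promoter bases printed above free, and covered those bases fully in replicate 2. The pooled H3K27ac peak of the promoter was 2837 bp long with a fold enrichment of 2.41, at percentile 94.3 of the pooled list.

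Notch1, on chromosome 2 (26457903 to 26516663, minus strand), has 2 coding starts, and its values cover the windows of both. H3K27ac covered 42.1%, 44.9% and 29.2% of them in replicates 1, 2 and 3, and H3K4me1 covered 41.9%, 27.6% and 29.3%. The marks were not distinguishable by this measure, with a difference of 5.81 ± 6.61 percentage points (SE, n = 3 lists per mark, exact permutation p = 0.3). Leaving out 1 list at a time, it ranged from 2.71 to 10.6. Without H3K27ac replicate 3 the marks did not overlap (means of 43.5% and 32.9%), a call that fewer lists can add but not remove. H3K27ac covered the main start itself in all 3 replicates, and H3K4me1 in none. In replicates 1 and 2, H3K4me1 peaks reached to 136 and 141 bases before the main start and overlapped the H3K27ac peaks there. In the window of the upstream start, H3K4me1 had a peak in each replicate and H3K27ac in replicate 3 alone, and the pooled H3K27ac peak there had a fold enrichment of 1.50, at percentile 0.131 of its list.

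Notch3, the receptor best known from vascular smooth muscle, lies on chromosome 17 (32120820 to 32166852, minus strand). H3K27ac covered 0% of its promoter windows in each of the 3 replicates and in the pooled call. H3K4me1 covered 20.6%, 15.2% and 0%, and 0% in the pooled call. Of the 250 bases printed above, it covered 250, 160 and 0. The replicates of the marks overlapped, with a difference of −11.9 percentage points (SE 6.17, n = 3 lists per mark, exact permutation p = 0.4). Inside the gene, an H3K4me1 peak in all 3 replicates began 1262 to 1289 bases after the start. In the pooled H3K4me1 list it was 1067 bp long with a fold enrichment of 1.98, and no H3K27ac replicate had a peak that met it.

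Among the ligands, the Jag1 promoter had H3K27ac alone, the Dll4 promoter H3K4me1 alone, and the Dll1 promoter both marks, with more H3K4me1. Jag1, a ligand of the Serrate type expressed by vascular smooth muscle, lies on chromosome 2 (137081456 to 137116644, minus strand). H3K27ac covered 38.6%, 56.5% and 45.2% of its promoter window, and 0, 127 and 31 of the 250 bases before the RefSeq start. H3K4me1 covered 0% in each of the 3 replicates and in the pooled call. The difference was 46.8 ± 5.21 percentage points (SE, n = 3 lists per mark), the largest of the 10 genes with these windows. With windows of 250 bp it was 28.5, smaller in size than at Notch2 (55.0) and Dll4 (−62.9). It was 38.7 with windows of 3 kb and 23.4 with the starts of all transcripts. With only peaks of a −log10 p of at least 1.3 the H3K27ac mean was 44.6%. The pooled H3K27ac peak at the start was 1408 bp long with a fold enrichment of 2.40, at percentile 94.1, and the nearest pooled H3K4me1 peaks lay 1048 bases before and 2224 bases after the start.

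Dll4, a ligand known from sprouting endothelium, lies on chromosome 2 (119325784 to 119335962, plus strand). H3K4me1 covered 49.1%, 34.6% and 24.9% of its promoter window, whereas no H3K27ac list, pooled or single, had a peak there. The difference was −36.2 percentage points (SE 7.01, n = 3 lists per mark). It was −62.9 with windows of 250 bp, −17.0 with 3 kb and −18.1 with the starts of all transcripts. With only peaks of a −log10 p of at least 1.3 it was −24.7. The 250 bases before the start were covered by H3K4me1 over 250, 250 and 204 bases in the 3 replicates. The pooled H3K4me1 peak ended 238 bases before the start and met none of the bases printed above. Of the endothelial markers, 4 of 12 had promoter H3K4me1 and 2 of 12 both marks, with a median coverage over the 12 of 3.27% for H3K27ac and 0% for H3K4me1, and their part in the Dll4 result was not tested.

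Dll1, the other Delta ligand, lies on chromosome 17 (15367354 to 15376872, minus strand) and has 2 coding starts. H3K4me1 covered 56.1%, 56.2% and 34.2% of its promoter windows, and H3K27ac covered 0%, 28.3% and 10.4%. The difference was −35.9 percentage points (SE 11.0, n = 3 lists per mark). The peaks had fold enrichments of 1.51 and 1.56 for H3K27ac, at percentiles 44.7 and 59.1 of their lists, and 1.49 to 1.63 for H3K4me1, at percentiles 18.0 to 58.8. The pooled H3K27ac call held none, and no replicate peak of either mark at the Dll1 promoter reached a −log10 p of 1.3.

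Of the target genes, Hes1 and Hey2 had promoter H3K27ac in all 3 replicates, and Hey1 and Heyl did not. Hes1, a short-lived repressor, lies on chromosome 16 (30064384 to 30067796, plus strand). H3K27ac covered 42.6%, 41.5% and 54.3% of its promoter window, and H3K4me1 covered 16.6%, 0% and 0%. The difference was 40.6 ± 6.89 percentage points (SE, n = 3 lists per mark). In the pooled H3K27ac list a single peak of 7116 bp covered 96.2% of the promoter window and 99.0% of the gene body, with a fold enrichment of 1.90. In no H3K4me1 list did a peak cover the start. In the pooled H3K4me1 list a short peak of 172 bp lay 752 bases before the start, and a peak of 4737 bp began 1859 bases downstream and ran past the end of the gene.

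Hey2, a repressor of arterial and smooth muscle cells, lies on chromosome 10 (30832359 to 30842801, minus strand) and had both marks at its promoter in every replicate. H3K27ac covered 35.3%, 83.5% and 51.8% of its promoter window, and H3K4me1 covered 100%, 91.2% and 53.1%. The replicates overlapped between the marks, with a difference of −24.6 percentage points (SE 20.2, n = 3 lists per mark, exact permutation p = 0.2). Leaving out 1 list at a time, it ranged from −38.8 to −13.8. H3K4me1 covered the Hey2 start in all 3 replicates, where it covered 11.4% to 15.2% of the main starts of all genes. The 250 bases with the TGGGAA match were covered by H3K4me1 in full in each replicate, and by H3K27ac over 30, 250 and 250 bases. No promoter peak of either mark at Hey2 reached a −log10 p of 1.3 in the replicates, whereas the pooled peaks had fold enrichments of 2.03 for H3K27ac and 2.12 for H3K4me1.

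Heyl, a Hey relative known from smooth muscle, lies on chromosome 4 (123233556 to 123249875, plus strand). H3K4me1 covered 11.5%, 34.6% and 17.0% of its promoter window, and no list of H3K27ac, single or pooled, held a peak in it. The difference was −21.0 percentage points (SE 6.96, n = 3 lists per mark). Hey1, on chromosome 3 (8663359 to 8667256, minus strand), had a short H3K27ac peak over 9.60% of its window in replicate 2 alone and an H3K4me1 peak over 32.8% in replicate 3 alone. The difference at Hey1 was −7.75 percentage points (SE 11.4, n = 3 lists per mark, exact permutation p = 1). The Hey1 peak of replicate 3 covered 55.7% of the gene body, and its fold enrichment of 2.04 was at percentile 97.1 of that list.

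**Figure D2:**
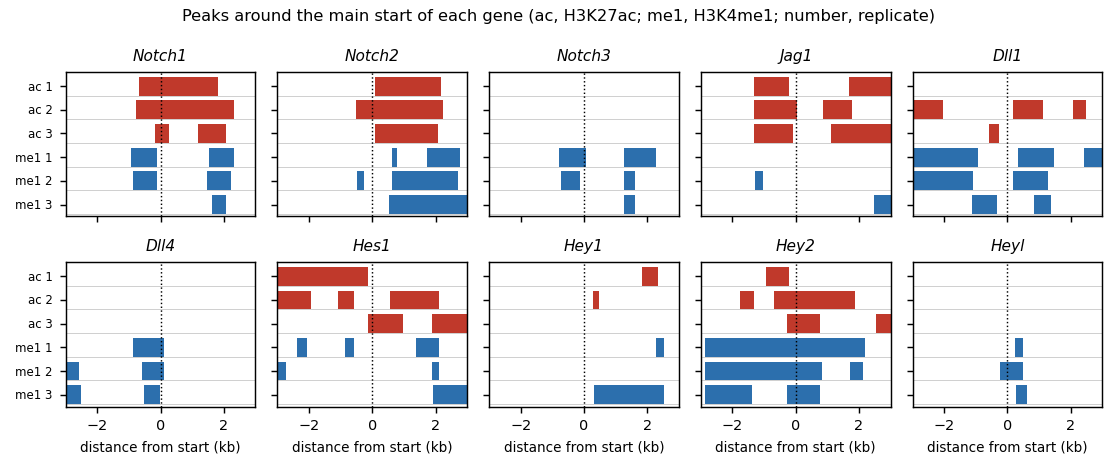
Peaks within 3 kb of the main start of each gene, with distance in kb on the horizontal axis, positive in the direction of transcription, 1 row per replicate list, bars where peaks lie (red, H3K27ac; blue, H3K4me1) and a dotted line at the start. Blue bars cross the Hey2 start in all 3 lists and the Dll4 start in 2, and are missing from the Jag1 start.

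The start sites themselves were counted next. H3K27ac covered the main start of 1, 4 and 3 of the 10 genes in replicates 1, 2 and 3, against 36.1% to 38.7% of all genes, and H3K4me1 covered 3, 3 and 1, against 11.4% to 15.2%. Over the 3 replicates, Notch1 (3) and Hey2 (2) gave most of the H3K27ac starts, and Hey2 (3) and Dll4 (2) most of the H3K4me1 starts.

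Whole gene windows were compared next, from 50 kb before the gene to 50 kb after it. Mean coverage by H3K4me1 was highest at Notch2 (22.1%) and by H3K27ac at Hey2 (13.7%), and that of both marks was lowest at Hey1. H3K4me1 covered 23.4%, 21.8% and 21.3% of the Notch2 window in replicates 1, 2 and 3, at percentiles 97.4, 96.4 and 96.6 of all genes. H3K27ac covered 9.26%, 9.35% and 6.60%, at percentiles 68.8, 73.3 and 65.3. The groups did not overlap, and H3K4me1 exceeded H3K27ac by 13.7 ± 1.10 percentage points (SE, n = 3 lists per mark). Notch1, Hes1 and Heyl also had more H3K4me1 than H3K27ac in every replicate, by 5.49 ± 1.02, 1.74 ± 0.676 and 3.57 ± 0.620 percentage points.

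In all, H3K4me1 was higher without overlap in 4 of 10 windows, against 13.2% of all genes, and H3K27ac in 0, against 18.4%. The exact permutation p was 0.1 for each of the 4, and 0.317 adjusted over all genes. With only peaks of a −log10 p of at least 1.3 the counts were 2 (Notch2 and Hes1) for H3K4me1 and 2 (Dll4 and Hey2) for H3K27ac, against 6.84% and 29.1% of all genes, so the balance between the marks depended on the strength required of a peak. With only peaks of at least 5 times the mean coverage of the genome, H3K4me1 was higher in 8, against 21.4% of all genes. The Hes1 call was lost with flanks of 10 kb (means of 22.1% for H3K27ac and 23.1% for H3K4me1) and of 100 kb (3.36% and 4.31%). At Dll4 the direction turned with the setting. H3K4me1 was higher with flanks of 10 kb (0.216% for H3K27ac and 7.65% for H3K4me1) and with the filter on coverage (1.67% and 2.92%), and H3K27ac was higher with flanks of 100 kb (5.59% and 2.30%).

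At Hey2 and Jag1 the marks overlapped in window coverage, but not under every filter. In the Hey2 window, H3K27ac covered 18.5%, 11.4% and 11.3%, at percentiles 92.3, 80.9 and 84.9 of all genes. For H3K4me1 the shares were 13.7%, 14.5% and 14.6%, at percentiles 86.7, 88.7 and 90.1. The difference was 0.545 ± 2.40 percentage points (H3K4me1 minus H3K27ac, SE, n = 3 lists per mark). H3K27ac was higher without overlap with the −log10 p filter (means of 4.40% and 1.27%), and H3K4me1 with the filter on coverage (8.93% and 14.1%) and without H3K27ac replicate 1 (11.4% and 14.3%). Part of the Hey2 coverage lay at the start of another gene. The strongest pooled H3K27ac peak of the window, 3619 bp long with a fold enrichment of 2.64, overlapped the promoter of Ncoa7. At Jag1, H3K27ac covered 10.9%, 10.9% and 10.7% and H3K4me1 covered 11.5%, 10.2% and 15.8%. H3K4me1 was higher at Jag1 without overlap with the filter on coverage (means of 8.34% and 12.1%) and without H3K4me1 replicate 2 (10.8% and 13.6%). Hey1 lay at the other end, where no list covered more than 2.53% of the window and H3K27ac replicate 3 and H3K4me1 replicate 2 had no peak.

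**Figure D3:**
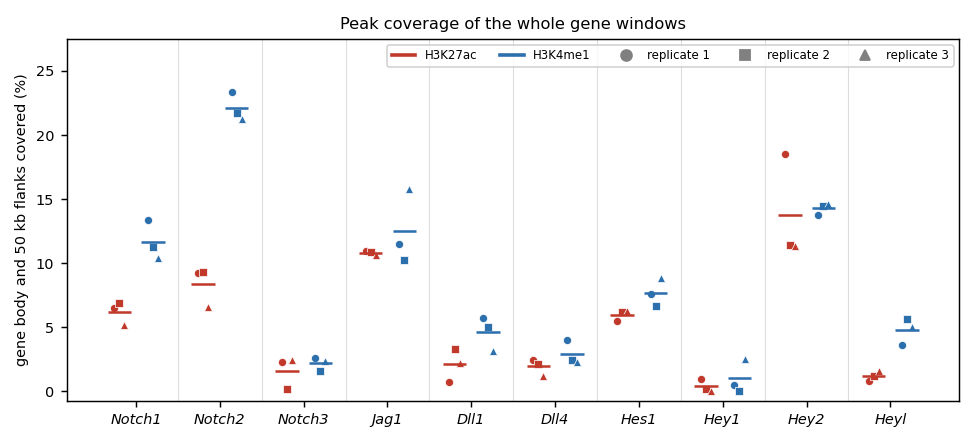
Percent of each gene body with its 50 kb flanks that was covered by peaks, on the vertical axis, for the 10 genes, with 1 point per replicate list (red, H3K27ac; blue, H3K4me1) and a line at the mean of 3. The 3 blue points of Notch2, at 21.3% to 23.4%, lie above every other point.

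Together the windows held 81, 76 and 69 H3K27ac peaks and 108, 91 and 93 H3K4me1 peaks in replicates 1, 2 and 3. Of the H3K27ac peaks 5, 9 and 7 were promoter peaks, 19, 24 and 22 were intragenic and 57, 43 and 40 were flanking. For H3K4me1 there were 10, 10 and 8 promoter, 42, 34 and 34 intragenic and 56, 47 and 51 flanking peaks. The summed intragenic count was thus higher for H3K4me1 in every replicate, and Notch2 and Notch1 gave most of it. Notch2 held 24, 18 and 17 against 11, 14 and 12 for H3K27ac. Notch1 held 10, 9 and 8 against 1, 5 and 2. The other genes had no common direction, and the count over all genes was not made. H3K27ac replicate 1 had the most flanking peaks of its mark, and only 41 of its 81 peaks reached 5 times the mean coverage of the genome, against 69 of 76 and 59 of 69 in replicates 2 and 3. Over the whole lists the counts were 47885 of 152889, 78118 of 99035 and 77973 of 93684.

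Lists called against the same IgG library shared more sequence. In the member windows, the Jaccard index (shared bases over bases in either list) was 0.282 to 0.296 in the 3 pairs of different marks with the same IgG library, and 0.149 to 0.194 in the 6 pairs with different ones. It was 0.214 to 0.378 in the 5 pairs of 1 mark with different IgG libraries. The part of the shared controls in the overlap of the marks was not tested. Among the replicate lists, IgG replicate 1 was used for H3K27ac alone, and each pooled list was called against all 3 IgG libraries.

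Regions outside every protein-coding promoter window were examined because distal sequence with both marks is commonly read as an active enhancer. A distal region with both marks was H3K27ac sequence in at least 2 of 3 replicates that met H3K4me1 sequence in at least 2 of 3. There were 23 in the 10 windows, at 5 of 10 genes, against 56.8% of all genes with at least 1. Notch2 had 10, Hey2 5, Hes1 4, and Notch1 and Jag1 2 each. Notch3, Dll1, Dll4, Hey1 and Heyl had 0. Per 100 kb these were 4.22 at Notch2, 4.53 at Hey2 and 3.87 at Hes1, at percentiles 88.5, 89.6 and 86.7 of all genes. The median over the 10 genes was 0.630 per 100 kb against 0.796 over all genes. The counts are of stretches and not of separate sites. At Hes1 those 2.01, 4.17 and 5.67 kb after the start lay under the single pooled H3K27ac peak of 7116 bp that also met the promoter. Both stretches of Notch1 lay under a single pooled H3K27ac peak of 1804 bp, and several of Notch2 under one of 9711 bp. Leaving out an H3K27ac list required both remaining lists of that mark, so the sequence counted could only shrink. The total was 13 without H3K27ac replicate 3 and 15 without replicate 2. With only peaks of a −log10 p of at least 1.3 it was 5.

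The windows also held 51 distal regions with H3K4me1 alone and 15 with H3K27ac alone. Of the former, 14 were at Notch2, 11 at Notch1 and 9 at Jag1. Of the latter, 7 were at Hey2 and 6 at Jag1. Notch2 and Notch1 had 0 with H3K27ac alone.

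**Figure D4:**
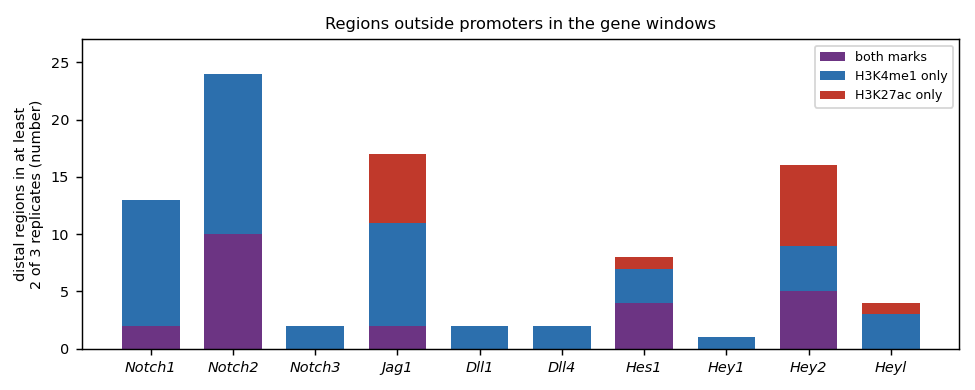
Number of distal regions in the window of each gene, on the vertical axis, stacked by mark (purple, both; blue, H3K4me1 alone; red, H3K27ac alone), each present in at least 2 of 3 replicates. Purple bars stand at Notch1, Notch2, Jag1, Hes1 and Hey2, and the tallest is Notch2 with 10.

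At Notch2 the regions with both marks clustered in the first part of the gene, and 8 of the 10 were intragenic. They lay 11.0 to 50.5 kb after the start. The longest pooled peak of H3K4me1 in the windows, 24063 bp with a fold enrichment of 2.38 at percentile 98.2, ran from 9996 bases after the start, and a further H3K4me1 peak of 18089 bp with a fold enrichment of 2.25 began 36815 bases after it. The longest pooled H3K27ac peak, 9711 bp with a fold enrichment of 2.09, lay within the first of these. Over the gene body H3K4me1 covered 34.7%, 33.9% and 32.0% and H3K27ac covered 12.0%, 13.1% and 8.77%. Notch2 kept its call with the p-value filter, at a mean of 15.1% of the window for H3K4me1 and 2.61% for H3K27ac.

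**Figure D5:**
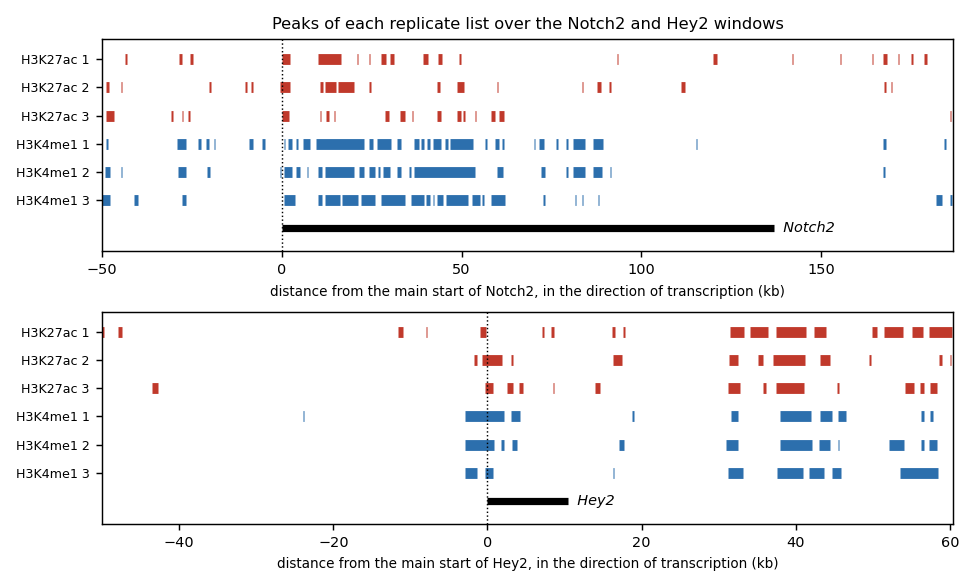
Peaks of the 6 replicate lists over the Notch2 window (top) and the Hey2 window (bottom), with distance from the main start in kb on the horizontal axis (red, H3K27ac; blue, H3K4me1; black bar, gene body; dotted line, its start). Blue peaks fill the first part of the Notch2 gene, and at Hey2 most red and blue peaks lie past the end of the gene.

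At Hey2 all but 1 of the 5 regions with both marks lay past the end of the gene, 32.0 to 57.9 kb from the start. Those 43.5, 56.3 and 57.9 kb from the start lay beyond the pooled H3K27ac peak at the Ncoa7 promoter, itself 37612 bases from the Hey2 start. The strongest of the 5, 1458 bp long, was met by peaks of all 3 replicates of either mark. Its pooled fold enrichment was 2.25 for H3K27ac and 2.26 for H3K4me1. At Jag1 both lay downstream of the gene as well, 49.1 and 67.3 kb from the start, with no other protein-coding promoter in the window. The farther was 2460 bp long, with pooled fold enrichments of 2.20 and 2.37, and the nearer was 2090 bp long, with 1.95 and 1.90. At Hes1, 1 region of 1055 bp lay 4.17 kb after the start, where the peak of H3K27ac replicate 3 met its edge only and covered 0 of its central 300 bases. Another of 490 bp lay at −40.5 kb, where a minus sign stands for upstream. The pair at Notch1 lay at −21.4 and −22.6 kb from the main start. The genes these regions act on were not tested.

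The centres of the strongest regions of Jag1 and Hey2 are shown because all 6 replicate lists covered their 300 bases in full. They lie in no annotated exon, and are read from GRCm38.p6 on the plus strand, with capitals as above.
Jag1 distal region (chr2:137049233-137049532, plus strand): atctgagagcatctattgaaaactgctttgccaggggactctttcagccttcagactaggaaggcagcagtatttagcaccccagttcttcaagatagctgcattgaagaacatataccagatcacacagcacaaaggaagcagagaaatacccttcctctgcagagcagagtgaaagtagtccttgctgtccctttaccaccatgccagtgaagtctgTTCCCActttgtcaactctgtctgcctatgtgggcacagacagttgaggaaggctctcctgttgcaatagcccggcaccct
Hey2 distal region (chr10:30810628-30810927, plus strand): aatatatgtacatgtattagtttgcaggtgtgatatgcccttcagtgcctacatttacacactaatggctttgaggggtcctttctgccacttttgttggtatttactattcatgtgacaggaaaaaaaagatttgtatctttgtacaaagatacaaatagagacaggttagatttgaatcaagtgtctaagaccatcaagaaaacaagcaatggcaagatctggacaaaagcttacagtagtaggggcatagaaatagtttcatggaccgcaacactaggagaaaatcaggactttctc

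Both differed from the promoters in composition. The Jag1 centre had a G+C content of 48.7% and a CpG ratio of 0.0568, and the Hey2 centre had 37.3% and 0.0972. The medians of 28391 distal regions with both marks and at least 300 bp were 40.7% and 0.170, taken at their central 300 bases. The Jag1 centre held 1 TGGGAA, on the reverse strand and within GTGGGAA. Of the 28391 centres, 24.6% held TGGGAA and 5.52% held GTGGGAA. The Hey2 centre held no match to TGGGAA or CACGNG, and neither centre held TGACTCA. Across the 28391 centres CACGNG was in 10.5% and TGACTCA in 8.80%.

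Some of the strongest flanking peaks lay at promoters of neighbours. The strongest pooled H3K27ac peak in the Dll4 window, with a fold enrichment of 2.50 at percentile 95.8, lay 35257 bases before the start at the promoter of Vps18. In the Dll1 window the single pooled H3K27ac peak, with a fold enrichment of 2.01, was at the promoter of Fam120b. At Heyl, both pooled H3K27ac peaks were at the promoter of Pabpc4, and at Notch1 the strongest, with a fold enrichment of 2.53, was at that of Sec16a. Heyl itself had H3K4me1 before its start in all 3 replicates, the nearest peaks ending 3733, 3374 and 5111 bases upstream. In the pooled list this was a peak of 4079 bp with a fold enrichment of 1.93.

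The rest of the pathway was read from 29 further genes. Promoter H3K27ac was at 22 of 29 against 53.9% of all genes, H3K4me1 at 16 against 43.6%, and both at 16 against 39.1%. By role, H3K27ac was at 8 of 8 genes of receptor cleavage, 3 of 4 nuclear partners of the receptor, 3 of 4 of its glycosylation, 5 of 6 of ligand and receptor turnover, 3 of 4 further targets, and none of the other ligands Jag2 and Dll3 or the receptor Notch4. Coverage by H3K27ac was higher without overlap at 10 of the 29 against 26.2%, and by H3K4me1 at 1, Nrarp, a feedback inhibitor, against 1.71%.

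Both marks were in all 6 replicate lists at 10 of these 29 genes, against 24.3% of all genes. Among them were the coactivators Maml1 and Maml2, the gamma-secretase genes Psen2 and Ncstn, the protease Furin, the glycosyltransferase Lfng, the ubiquitin ligase Itch, and Nrarp. Jag2, Dll3, Notch4 and the glycosyltransferase Mfng had a promoter peak in none. Rbpj, the DNA-binding partner of the receptors, had H3K27ac in 3 replicates and H3K4me1 in 2, with H3K27ac higher without overlap.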

How the data were processed

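Peak lists of 6 ChIC-seq libraries (3 H3K27ac, 3 H3K4me1) and 1 pooled list per mark were analysed, and the 3 IgG libraries entered only as controls. Per the labels, the authors used cutadapt, Bowtie2 and MACS2 on GRCm38.p5. Per the file headers, the authors called broad, paired-end peaks with MACS 2.2.7.1 (p 0.05, broad cutoff 0.1), scaling the larger library to the smaller. The deposited pileup is a coverage signal at IgG depth, the deposited fold enrichment is a ratio to the local background, and the deposited −log10 p is a mean over each region. These served to describe and filter peaks, and the q-value column was not used. The control was IgG replicate 3 for replicate 3 of either mark, IgG replicate 1 for H3K27ac replicate 1, and IgG replicate 2 for the remaining 3 libraries.

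Gene models were GENCODE mouse release 21 (21866 protein-coding genes, 54374 starts), and 0 peaks passed the ends of the reference chromosomes. Coverage is the percent of a window under the union of peaks, and a peak counted from 1 bp of overlap. The marks were compared with exact permutation of the 6 lists (20 assignments, two-sided) and Benjamini-Hochberg adjustment over all genes. The main start is that of the first principal transcript. Sequences came from RefSeq and GRCm38.p6. Python 3.11.15, numpy 2.4.6 and pandas 2.3.3 were used. Interval computations were tested on simulated data, with 0 differences in 900 checks. The members and gene lists were chosen with earlier results of these data known, and the window comparison and its alternatives after its values were seen. All 10 members were described, of the other pathway genes those with promoter peaks in all 6 lists or none were eligible to be named (not all are reported here), and further genes named (Rbpj and the markers Rgs5, Myh11, Emcn, Tek, Cdh5 and Ptprc) were chosen after their values were seen.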

Additional observations from a re-analysis of the deposited data

How the results depend on the processing

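For promoters, windows of 250 bp left 2 genes with both marks (23.3% of all genes) and windows of 3 kb gave 7 (47.8%). When 50% of a promoter window had to be covered, H3K27ac was at 2 genes, H3K4me1 at 1 and both at 1. With only peaks of a −log10 p of at least 1.3, which kept 17 to 19 H3K27ac and 25 to 35 H3K4me1 peaks per list in the windows, H3K4me1 was at 2 promoters (Notch2 and Dll4), both marks at 1, and H3K4me1 was higher at 0. The median covered share of the windows, 4.18% for H3K27ac and 6.58% for H3K4me1 against medians over all genes of 4.14% to 5.54% and 4.05% to 4.79% in the replicates, was then 1.44% and 1.33%, distal regions with both marks numbered 5, and the windows with H3K27ac and H3K4me1 higher were 2 and 2. With peaks of at least 5 times the genome mean, H3K4me1 was higher in 8 windows. With flanks of 10 kb the shares were 5.53% and 11.9% and the regions 14, and with 100 kb the H3K4me1 share was 6.11%, the regions 46, and H3K27ac was higher in 1 window (Dll4; 18.5% of all genes) and H3K4me1 in 5 (16.2%). Regions in all 3 replicates numbered 10. The pooled calls gave 48 regions and shares of 5.60% and 13.3%. The cause of these changes was not tested.

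Leaving out 1 replicate at a time gave 13 to 22 distal regions, 3 to 4 promoters with H3K27ac higher and 3 to 5 with H3K4me1 higher, 5 to 6 with H3K27ac, 6 to 7 with H3K4me1 and 3 to 4 with both, 0 and 4 to 6 windows with H3K27ac and H3K4me1 higher, and shares of 3.89% to 4.35% and 6.41% to 6.80%. The direction of most of these changes was fixed by the rules. A peak or region still needed 2 lists, so promoter counts could only fall and region sequence only shrink. Calls without overlap could only be kept or gained with fewer lists. The Hey1 difference changed sign, to 3.20 percentage points in favour of H3K27ac without H3K4me1 replicate 3. Within IgG library 2 (1 H3K27ac list against 2 of H3K4me1), each mark was higher at 5 promoters (41.4% of all genes for H3K27ac and 7.01% for H3K4me1), and within IgG library 3 (1 list against 1) H3K27ac was higher at 3 (44.3%) and H3K4me1 at 6 (11.7%). Same-numbered lists of the marks correlated in their deviations at −0.000452, 0.367 and 0.480 over 10836 genes, H3K27ac replicate 2 and H3K4me1 replicate 1, which share IgG library 2, at 0.334, and the labels tie nothing to the numbers. With a replicate block, H3K27ac was higher in all 3 pairs at 3 genes (32.2% of all genes) and H3K4me1 at 4 (3.03%), Hey2 being added. The smallest exact sign-flip p was 0.25, the least that 3 pairs allow. IgG depth limits how many weak peaks can be resolved.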
